A study of Mus musculus with 18 samples.

Results

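The mammary epithelium of FVB/NJ mice at pregnancy day 12.5 was compared with that of adult virgin FVB/NJ mice of 10 weeks, class of cell by class of cell. Messenger RNA had been counted in single cells with the 10x Chromium 3′ kit, and the comparison took the 2 pregnancy libraries, H and G, and the 3 adult libraries, A10, P7 and D12, out of 18 libraries in the series. The labels name no transgene, drug or knockout, and the 5 libraries shared the strain and differed in stage. Of 149371 barcodes in the series these libraries gave 46413, of which 44557 had 500 or more detected genes and under 20% mitochondrial counts. A cell was called basal where its counts of the keratins Krt5 and Krt14 exceeded those of Krt8 and Krt18, and luminal in the reverse case, which gave 42929 gated epithelial cells, 19284 of them adult and 23645 pregnant. A luminal cell entered the luminal progenitor (LP) gate with 2 or more counts over Kit, Elf5, Aldh1a3, Cd14 and Plet1, if these exceeded its counts of Prlr, Cited1, Areg, Pgr and Esr1, and entered the mature luminal (ML) gate with 3 or more counts of the latter genes, if they exceeded the former. By these rules 18377 cells were basal, 15319 fell in the LP gate, 7058 in the ML gate and 2175 luminal cells in neither. Because the keratins and these 10 genes chose the cells, their own levels within a class are not results.

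In the mammary gland, the basal layer of contractile myoepithelial cells surrounds a luminal layer, in which hormone-sensing (ML) cells carry the receptors for estrogen, progesterone and prolactin, and progenitor cells that lack the steroid receptors give rise to the secretory alveoli. Progesterone and prolactin drive the growth of alveoli in pregnancy, partly through signals that the hormone-sensing cells send to their neighbours, such as RANK ligand (Tnfsf11) and WNT4. Prolactin acts on alveolar cells through JAK2 and the transcription factor STAT5, which with ELF5 turns on the genes of milk proteins and milk fat.

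Per the study's methods, lineage-negative cells were sorted with CD24 and CD29 after removal of cells with blood or endothelial surface markers, and the glands of several mice were pooled per stage. Of the adult glands in its comparison of strains the study says that the mice were not staged for estrus. A library was therefore the unit of replication, and p-values measure the spread between libraries of pooled animals. The study calls the libraries of a stage biological replicates, without stating how animals were divided between them. Total counts of unique molecular identifiers (UMIs) ran from 9920346 in P7 to 71602020 in G. P7 stood apart from the other 4 libraries: its kept cells had a median of 2576 UMIs against 4238 to 5324, a median mitochondrial share of 0.402% against 3.127 to 3.925%, and barcodes of 14 bases instead of 16. The 16-base libraries shared 76 to 201 kept barcodes per pair, up to 1.81% of a library. Sharing with P7 could not be read, since a barcode of 14 bases cannot equal one of 16. No doublet caller was run. A further group was the collagen cells, 281 cells whose counts of Col1a1, Col1a2 and Col3a1 were 5 or more and exceeded those of the keratins. They numbered 19 in H and 17 in G and served as a rough comparison for milk RNA, since such cells should not express milk genes. Free RNA and doublets cannot be told apart in them. The group was not limited to cells outside the keratin classes, so its members can also be counted in a class sum.

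Cells of the ML gate were scarce at pregnancy day 12.5. They were 35.1%, 34.9% and 32.5% of gated epithelial cells in A10, P7 and D12, and 1.72% and 1.95% in H and G (34.2% ± 1.46, SD, n = 3, against 1.83% ± 0.16, n = 2). The adult and pregnant shares lay far apart, and the exact two-sided permutation test gave p = 0.1, the smallest value that 2 against 3 libraries allow. Among luminal cells alone, the ML gate held 52.7%, 55.2% and 54.6% in the adults and 2.81% and 4.48% in pregnancy. The gate rests on counts of Prlr, Cited1, Areg, Pgr and Esr1. Fewer hormone-sensing cells and less of these transcripts per cell cannot be told apart by it.

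Cells of the LP gate took 26.0%, 24.6% and 23.3% in the adults and 54.5% and 35.9% in H and G, again without overlap (24.6% ± 1.33 against 45.2% ± 13.1, exact permutation p = 0.1). The difference was not kept at equal depth. For this, cells with under 1500 UMIs were left out and the others thinned to 1500 UMIs. In P7 2650 gated cells remained, against 3193 with all UMIs. The LP shares were then 23.7% ± 3.00 and 24.8% ± 7.27 (exact permutation p = 0.9), while luminal cells in neither gate were 9.44% ± 3.65 and 27.2% ± 4.14 (exact permutation p = 0.1). Luminal cells outside the ML gate, pooled in an alternative chosen after seeing the data, were 31.5%, 28.3% and 27.0% in the adults against 59.5% and 41.6% in pregnancy, and 34.8%, 31.9% and 32.9% against 60.0% and 43.9% after thinning. Basal cells were 33.4%, 36.8% and 40.5% in the adults and 38.7% and 56.5% in pregnancy, and the groups overlapped (exact permutation p = 0.2). They lay just apart after thinning (33.2% ± 3.15 against 46.8% ± 11.3, exact permutation p = 0.1), with D12 at 36.55% and H at 38.8% the nearest. Under a stricter keratin gate they also lay just apart (29.4% ± 4.25 against 44.1% ± 13.5, exact permutation p = 0.1), with P7 at 34.2% and H at 34.6% the nearest. That gate left 1080 of 2237 basal cells in D12. A sorted suspension gives shares of the captured cells, so a share falls when another class is captured more often.

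**Figure D1:**
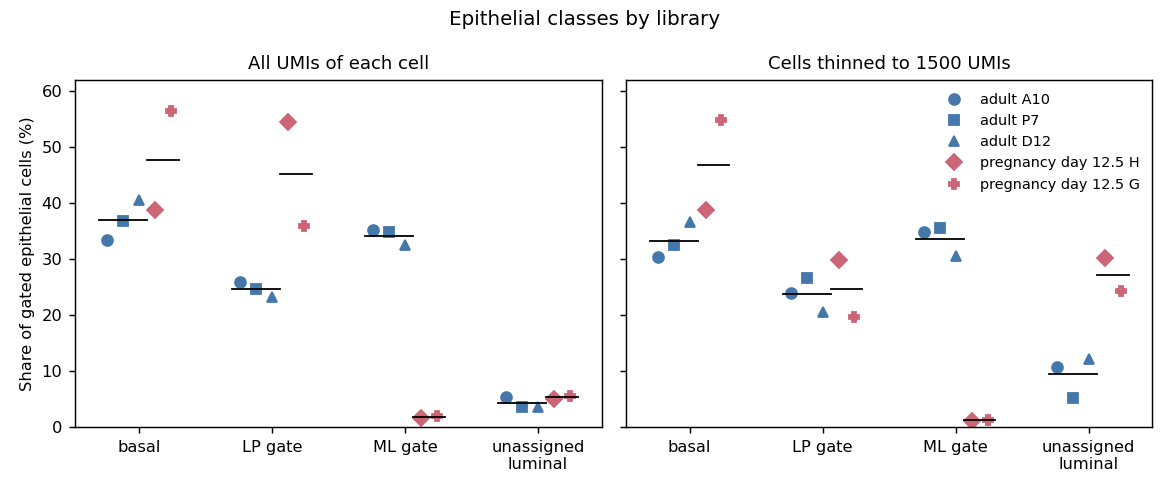
Share of gated epithelial cells (percent, vertical axis) in each class for the 3 adult and the 2 pregnancy libraries, with all UMIs of each cell (left) and with cells thinned to 1500 UMIs (right). Each point is a library and each horizontal line a group mean. The ML gate holds 32.5 to 35.1% of adult cells and 1.72 to 1.95% of pregnant cells with all UMIs, where the basal shares overlap.

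The class names were checked on markers that the gates did not use. All 7 basal markers, among them the transcription factor Trp63 and the smooth muscle genes Acta2 and Myh11, stood highest in the basal class of every library. Of 7 ML markers, including Foxa1, Tbx3 and Gata3, 6 stood highest in the ML class of each adult library (Greb1 did not) and 7 in H and G. Of 7 LP markers, 6 stood highest in the LP class of each adult library (Rasl11a did not), but only 3 in H and 4 in G. Hey1 and Lurap1l, and again Rasl11a, were not highest there in either pregnant library, and Tspan8 was not in H. The pregnant cells are therefore called LP-gate cells, by their rule. Median depth differed between the stages in the LP gate, and overlapped in the ML gate through P7. LP-gate cells had 5389, 3053 and 3925.5 UMIs in the adults against 7239.5 and 7550.5 in pregnancy, and ML-gate cells 7237.5, 3412.5 and 8341.5 against 4441 and 4402.5. Its part in the results was not tested, beyond the thinned alternatives.

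Counts were then summed per library and class and tested with edgeR's quasi-likelihood test, with Benjamini-Hochberg adjustment over all genes of a class. A gene is said to have risen or fallen only with an adjusted p under 0.05, and levels are given as CPM, the counts scaled to a common total of the class sum, after TMM scaling (scaled CPM). In LP-gate cells 138 of 12871 genes rose (1.07%) and 335 fell (2.60%). The gene of largest rise was Glycam1, which encodes a mucin-like glycoprotein of milk. It had 1 count over the 3 adult libraries and 715830 over the pregnant ones, with 0.0604, 0 and 0 scaled CPM in A10, P7 and D12 and 9016 and 9938 in H and G, a ratio of 249250 (95% counting interval 44735 to 9844800, adjusted p = 0.00669). The groups were separate, and the call held in every alternative tried.

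Of 15 tested genes of the milk protein list 1 rose in LP-gate cells, Glycam1, and none fell, though the list's median log2 difference was 2.17 against -0.02 over all genes. The difference was above 0 for 11 of the 15. The groups did not overlap, with pregnancy higher, for 8 of the 15, where 27.3% of all genes lay so. They did not overlap with pregnancy lower for 1, where 22.7% of all genes lay so. The caseins, the micelle proteins of milk, were among the uncalled and were singled out after their values were seen. Csn2 (beta-casein) was at 8859, 3923 and 0 scaled CPM in A10, P7 and D12 and 49156 and 52225 in H and G (adjusted p = 0.428). Csn1s1 (alpha-S1-casein) was at 5721, 2261 and 4.43 scaled CPM in A10, P7 and D12 and 28566 and 29366 in H and G (adjusted p = 0.337). Both pregnant libraries lay above all adults, but adult D12 was at or near 0 while A10 and P7 were well above it, and on the log scale D12 lay farther from A10 than A10 did from H or G. Wap, the whey acidic protein, had 60, 5.38 and 0.305 scaled CPM in A10, P7 and D12 and 1084 and 1258 in H and G (adjusted p = 0.115).

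A further pair of milk genes was not higher in pregnancy in every library. Lalba, the lactose synthase subunit alpha-lactalbumin, was at 3834, 1287 and 91.4 scaled CPM in A10, P7 and D12 and 167 and 216 in H and G, so both pregnant values lay between the adults. Spp1 (osteopontin) was at 12815, 32009 and 2.44 scaled CPM in A10, P7 and D12 and 3926 and 4214 in H and G, with the pregnant values again between D12 and the other adults. Neither passed the test (adjusted p = 0.233 and 0.666). The milk list took 6.79%, 10.3% and 1.10% of the counts of adult LP-gate cells and 15.9% and 16.5% of the pregnant ones. Leaving the milk genes out of the fit left 467 called genes in LP-gate cells, against 473 with them.

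The promoters of Glycam1 and of the 2 caseins above are shown because they hold the letters TTCNNNGAA, the core that STAT5 dimers are known to bind. Each sequence is the 250 bases before the annotated start in RefSeq on GRCm38.p6, read 5′ to 3′ on the strand of the gene, with the match in capitals. Glycam1 lies on the minus strand at chr15:103565082-103565331 with its match starting 145 bases before the start site. Csn1s1 lies on the plus strand at chr5:87665958-87666207 with its match 100 bases before, and Csn2 on the minus strand at chr5:87699426-87699675 with its match 93 bases before.
Glycam1: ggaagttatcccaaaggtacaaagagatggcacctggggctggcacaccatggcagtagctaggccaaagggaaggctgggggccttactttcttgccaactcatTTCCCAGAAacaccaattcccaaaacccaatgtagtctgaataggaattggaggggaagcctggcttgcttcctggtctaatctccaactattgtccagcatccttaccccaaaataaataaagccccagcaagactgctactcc
Csn1s1: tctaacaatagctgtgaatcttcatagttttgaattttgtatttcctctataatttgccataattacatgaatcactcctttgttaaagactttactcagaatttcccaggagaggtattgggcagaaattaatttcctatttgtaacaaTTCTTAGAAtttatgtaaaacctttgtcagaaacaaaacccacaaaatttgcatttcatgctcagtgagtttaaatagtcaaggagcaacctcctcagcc
Csn2: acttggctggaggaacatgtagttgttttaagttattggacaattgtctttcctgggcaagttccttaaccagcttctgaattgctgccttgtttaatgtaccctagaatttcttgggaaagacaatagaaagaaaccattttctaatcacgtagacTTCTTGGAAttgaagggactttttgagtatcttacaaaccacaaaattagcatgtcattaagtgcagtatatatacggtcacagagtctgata
The motif equals its own reverse complement, so a single search covered both strands. It occurs in 2306 of 32851 such windows (7.02%) and in 3 of the 12 milk list genes with a window in the RefSeq table. A match describes the letters and is no evidence of binding in these cells.

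Of 16 tested genes of the milk fat globule and secretion list 4 rose in LP-gate cells and 1 fell (median log2 difference 1.01). The groups did not overlap, with pregnancy higher, for 9, where 27.3% of all genes lay so. They did not overlap with pregnancy lower for 3, where 22.7% of all genes lay so. Fabp3, a fatty acid carrier abundant in lactating glands, was at 9.85, 4.18 and 1.53 scaled CPM in A10, P7 and D12 and 2309 and 2428 in H and G (log2 difference 8.80 ± 0.95 SE, adjusted p = 0.0169). Cd36, the fatty acid transporter of the fat globule membrane, was at 2.90, 0.896 and 0.763 scaled CPM in A10, P7 and D12 and 158 and 153 in H and G (6.50 ± 0.61, adjusted p = 0.0104). The pregnant libraries differed from each other by far less than from any adult in both genes. Olah, the thioesterase that releases medium-chain fatty acids, rose from 1.27, 1.79 and 0 to 41.6 and 40.5 scaled CPM (5.39 ± 0.81, adjusted p = 0.0283), and Pigr, the receptor that carries IgA into milk, from 7.01, 8.36 and 3.21 to 37.2 and 39.9 scaled CPM (2.65 ± 0.42, adjusted p = 0.0314). The water channel Aqp5 fell from 133, 313 and 179.8 to 6.90 and 6.04 scaled CPM (-5.01 ± 0.55, adjusted p = 0.0169), and adult ML-gate cells held more of it, 381, 1109 and 639 CPM before scaling.

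In the fatty acid synthesis list 4 of 21 genes rose, none fell, and the groups were separate with pregnancy higher for 14, against 27.3% of all genes. Fasn, the fatty acid synthase, was at 36.6, 13.7 and 11.8 scaled CPM in A10, P7 and D12 and 261 and 241 in H and G (log2 difference 3.58 ± 0.56, adjusted p = 0.03). Acly, which makes cytosolic acetyl-CoA, was at 45.7, 46.6 and 29.2 scaled CPM in A10, P7 and D12 and 180.1 and 170.3 in H and G (2.11 ± 0.33, adjusted p = 0.03). The steps were of several fold in both, with no overlap. Fads1, a fatty acid desaturase, and Acacb, an acetyl-CoA carboxylase, also rose (1.61 ± 0.27 and 3.25 ± 0.55), and the call of Fads1 was lost without TMM scaling. The carboxylase of the cytosolic pathway, Acaca, was at 27.4, 11.3 and 8.24 scaled CPM in A10, P7 and D12 and 97.2 and 93.8 in H and G and missed the threshold (adjusted p = 0.0541), as did the lipogenic factor Thrsp, at 13.2, 7.47 and 0.153 scaled CPM in A10, P7 and D12 and 683 and 632 in H and G (adjusted p = 0.0508).

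The genes of largest rise under the naming rule held further members outside milk. Gjb6, a connexin of gap junctions, had 2 adult and 4469 pregnant counts, a ratio of 778 (95% counting interval 215 to 6426, adjusted p = 0.00669), and kept its call in every alternative. Gldc, the glycine decarboxylase of mitochondria, had 1 and 1599 counts, a ratio of 557 (99.8 to 22005, adjusted p = 0.00669), and lost the call only without H. Rgs8, a regulator of G protein signalling, had 866 pregnant counts and no adult one, at least 100.5-fold higher when 3 counts are put in place of the adult 0. Krt27, a keratin, Gm31305 and Gm47818 were also at 0 in all adults, with 192, 179 and 146 pregnant counts, at least 22.3-fold, 20.8-fold and 16.9-fold higher.

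Among the genes of largest fall were several that collagen or ML-gate cells also held, and those levels are given as CPM without scaling. Collagen cells can also lie in the LP gate. Apod, a lipid-binding apolipoprotein, fell from 652, 366 and 109 to 0.378 and 0.535 scaled CPM (log2 difference -9.67 ± 1.12, adjusted p = 0.0182). Collagen cells of A10, P7 and D12 held 431, 251 and 237 CPM, of the same order as the LP-gate level. Pi16, a gene of fibroblasts, fell from 29.7, 72.3 and 41.4 to 0.118 and 0.0595 scaled CPM (-8.93 ± 0.71, adjusted p = 0.00724), and collagen cells held 2046, 6986 and 3608 CPM. Fam25c fell from 814 to 1 counts, a ratio of 2338 (418 to 92449), and ML-gate cells of the adults held 361, 27.4 and 981 CPM against 12.1, 4.63 and 99.3 in LP-gate cells. The summed stromal list took 0.0087%, 0.0213% and 0.0155% of adult LP-gate counts and 0.0021% and 0.0019% of pregnant ones. The part of other cells' RNA in these falls was not tested, and without cells that held counts of other cell types Fam25c, Pi16 and Pkib were no longer called, nor after thinning. Leaving those cells out gave a log2 difference of -10.88 for Fam25c (-10.86 with them), -10.50 for Pkib (-10.47 with them) and -5.61 for Pi16.

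Pkib, an inhibitor of protein kinase A, fell from 923 to 2 counts, a ratio of 1325 (366 to 10961), with 32.8, 104.5 and 4.58 scaled CPM in A10, P7 and D12, 0 and 0.0595 in H and G, and log2 differences of -12.65 to -9.30 under the alternatives, and Upk3a, a uroplakin, from 244 to 1, a ratio of 701 (125 to 27790, adjusted p = 0.00724). Crym, Efemp1 and S100g, the last a calcium-binding protein, had 132, 130 and 139 adult counts and none in pregnancy, at least 126-fold, 124-fold and 133-fold lower. Unlike Apod and Fam25c, Pkib was scarce in adult ML-gate cells, at 1.79, 2.99 and 0.433 CPM, and in adult collagen cells, at 2.36, 0 and 0 CPM.

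**Figure D2:**
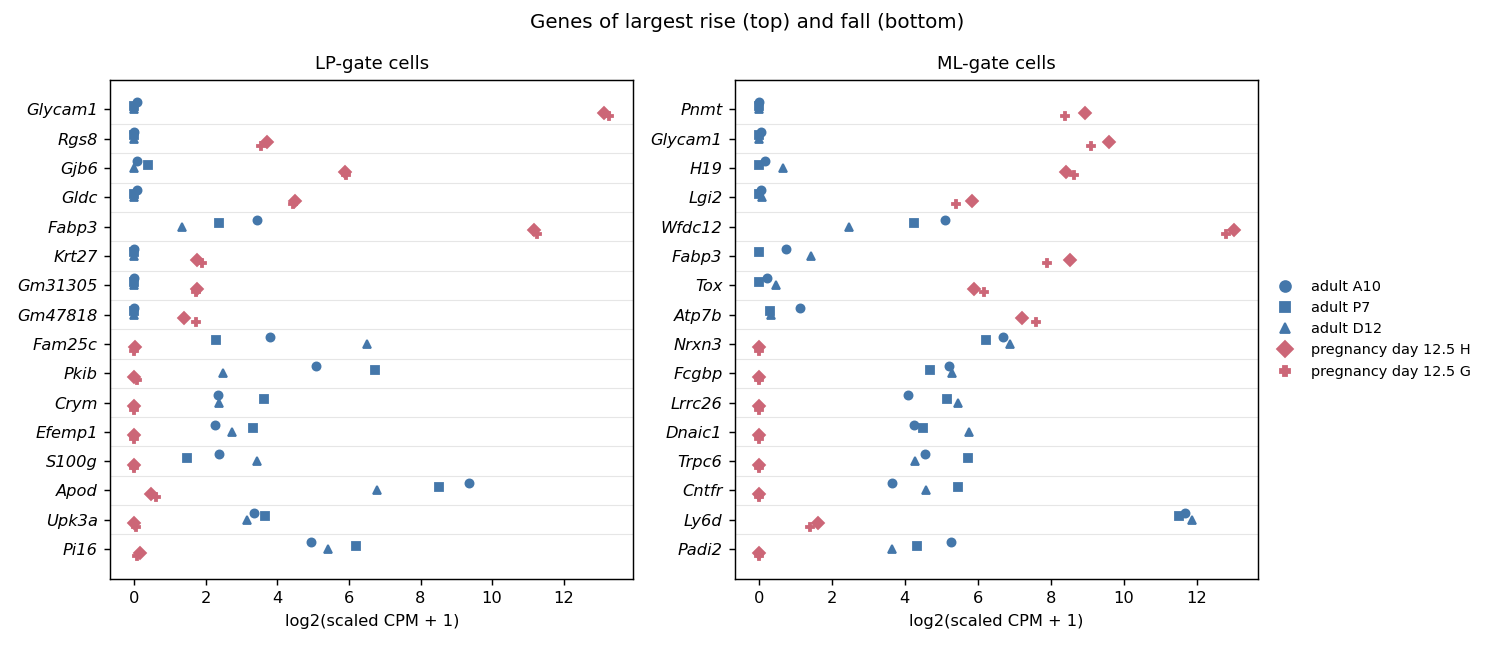
The 8 genes of largest rise and the 8 of largest fall under the naming rule in LP-gate (left) and ML-gate cells (right), as log2 of scaled CPM + 1 on the horizontal axis, each point a library. By the rule, both pregnant libraries lie above or below all 3 adult libraries for each gene.

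Of 14 tested genes of the luminal progenitor list 6 fell and none rose, with a median log2 difference of -3.44, and the groups did not overlap, with pregnancy lower, for 12, where 22.7% of all genes lay so. The first is Hey1, a target of Notch signalling, at 94.1, 140.1 and 108 scaled CPM in A10, P7 and D12 and 0.401 and 0.535 in H and G (log2 difference -7.92 ± 0.46, adjusted p = 0.00669). Tspan8, a tetraspanin, was at 148, 288 and 179.8 scaled CPM in A10, P7 and D12 and 2.65 and 2.20 in H and G (-6.40 ± 0.53, adjusted p = 0.00724), and Fcgbp, a mucus-associated protein, at 445, 521 and 485 scaled CPM in A10, P7 and D12 and 15.7 and 12 in H and G (-5.13 ± 0.44, adjusted p = 0.00762). Every adult value was more than 10 times every pregnant value for these genes. Adult collagen cells held 10.6, 0 and 5.52 CPM of Hey1, 3.53, 0 and 11 of Tspan8 and 7.07, 12 and 55.2 of Fcgbp, well under their LP-gate levels. The proton pump subunit Atp6v1b1 fell as well (149, 337 and 166 to 14.9 and 15.3 scaled CPM, log2 difference -3.85 ± 0.53, adjusted p = 0.0236), as did Rasl11a (-2.43 ± 0.42) and Prom1 (-3.94 ± 0.73). The gene for the transcription factor EHF did not follow, at 91.1, 127 and 127 scaled CPM in A10, P7 and D12 and 120 and 117 in H and G. No change was called for it.

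In the Notch list, 4 of 15 genes fell and none rose (median log2 difference -0.40). Besides Hey1 they were Nrarp, a feedback inhibitor of Notch, at 25.1, 33.4 and 40.5 scaled CPM in A10, P7 and D12 and 5.12 and 4.58 in H and G (-2.76 ± 0.35, adjusted p = 0.0213), and the Hey1 relatives Heyl and Hey2, each with under 100 counts in all. All adult values of Nrarp lay above both pregnant values. These are target genes of the pathway, and none of the receptors or ligands tested was called.

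Of 16 genes of the hormone-sensing list tested in LP-gate cells 3 fell, none rose, and the median was -3.31. The 3 were Ly6a, the surface antigen Sca-1, at 74.7, 107 and 147 scaled CPM in A10, P7 and D12 and 11.3 and 8.90 in H and G (-3.43 ± 0.43, adjusted p = 0.0213), Foxa1, the pioneer factor of the estrogen receptor (-3.20 ± 0.50), and Prom1. In adult ML-gate cells Ly6a held 514, 539 and 1116 CPM and in collagen cells 3344, 2584 and 3216, above its LP-gate level. ML-gate cells took 32.5 to 35.1% of adult and 1.72 to 1.95% of pregnant epithelial cells, a share that moved with these genes, and its part was not tested. Of 17 prolactin and STAT5 pathway genes none was called in LP-gate cells by edgeR and 3 by DESeq2, all lower, and the unadjusted p was under 0.05 for 5, with a median of -0.05. Over all genes of LP-gate cells DESeq2 called 4.10% higher and 9.005% lower, and the unadjusted p was under 0.05 for 23.98%.

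Among signals in LP-gate cells, Rspo1, a secreted amplifier of WNT signalling, rose, with 4.77, 12.5 and 19.8 scaled CPM in A10, P7 and D12 and 289.9 and 278 in H and G (log2 difference 4.53 ± 0.61, adjusted p = 0.0236), and Wnt5a fell (-2.21 ± 0.37, adjusted p = 0.0352), the only calls among 21 WNT and R-spondin genes (median 0.06). The cell cycle inhibitor Cdkn1a fell from 352, 449 and 299 to 61.1 and 60.5 scaled CPM (-2.59 ± 0.39, adjusted p = 0.0273), 1 of 14 cyclins and inhibitors. Of 17 chemokines and cytokines 1 rose and 3 fell (median -1.57). Ccl20 rose from 0.242, 0.597 and 0 to 15 and 14.7 scaled CPM (5.98 ± 0.66, adjusted p = 0.0169). Cxcl2 fell from 678, 1351 and 452 to 63.6 and 60.5 scaled CPM (-3.74 ± 0.65, adjusted p = 0.0381), Cx3cl1 by less (-1.57 ± 0.27), and the alarmin Il33 had 148 adult and 4 pregnant counts. Genes of the response to tissue dissociation, which include early response genes, took 1.25%, 2.88% and 1.97% of adult and 0.546% and 0.543% of pregnant LP-gate counts, and 2 of 18 fell (median -1.22), Ier3 among them (-2.71 ± 0.49, adjusted p = 0.0408). The part of dissociation in the falls of chemokine genes was not tested.

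The remaining lists held few calls in LP-gate cells. Of 21 basal identity genes 4 fell, among them Fxyd6 (-3.93 ± 0.45) and the plasminogen activator Plat (-3.89 ± 0.56), besides Tspan8. Of 24 basement membrane genes 2 fell, fibronectin (Fn1, -4.79 ± 0.65) and nidogen (Nid1, -2.36 ± 0.40), and of 16 contractile genes 1 fell, Mme (-2.84 ± 0.52). Leaving out the cells with counts of other cell types ended 10 of the 48 calls named in LP-gate cells, those of Plat, Fn1, Nid1, Mme, Prom1, Il33 and Gm47818 besides Fam25c, Pi16 and Pkib. The log2 difference went to 0.63 for Nid1 and -1.44 for Fn1, and stood at -3.10 for Plat, -2.87 for Mme, -3.97 for Prom1, -5.96 for Il33 and 8.32 for Gm47818. Thinning ended 7, with Fn1 (-4.27), Heyl (-3.16), Il33 (-6.13) and Wnt5a (-2.21, as without thinning) besides the same 3 genes, the stricter keratin gate those of Fam25c, Heyl, Nid1 and S100g, and the fit with all 9 FVB/NJ libraries that of Rasl11a. Of 19 genes of protein folding in the endoplasmic reticulum none was called by edgeR and 1 higher and 1 lower by DESeq2, with an unadjusted p under 0.05 for 4, against 23.98% of all genes (median -0.08). Of 11 EGF family genes edgeR called none and DESeq2 3, all lower, with an unadjusted p under 0.05 for 3, again against 23.98% of all genes (median -0.51).

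How many genes were called in LP-gate cells depended on single libraries. Without P7, 996 of 13156 genes rose (7.57%) and 1390 fell (10.6%), and 469 of the 473 genes called with it were among them. Without D12 64 genes were called, and without H or G, which leaves a lone pregnant library, 2 or 3. Of 48 called genes of LP-gate cells named here, 46 lost the call without H, 45 without G, 36 without D12 and 19 without A10, with adjusted p up to 0.604, and none without P7. Without P7 the list counts, chosen after seeing the data, were 3 risen and 1 fallen of 15 milk protein genes, 8 and 2 of 16 milk fat globule genes, 9 and 1 of 21 fatty acid synthesis genes, 0 and 6 of 15 Notch genes, 0 and 9 of 14 luminal progenitor genes, 2 and 10 of 16 hormone-sensing genes and 11 and 0 of 29 cell cycle genes.

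Milk transcripts were found in every class at day 12.5, so their levels were set against those of the 19 and 17 pregnant collagen cells. The milk list took 0.079%, 0.117% and 0.069% of counts in adult basal cells and 1.54% and 1.29% in pregnant ones, and 0.361%, 0.201% and 0.0848% against 2.57% and 1.36% in ML-gate cells. In the collagen cells, which should lack them, it took 4.25% in H and 1.26% in G. Median depth in H was 3207 UMIs in basal and 3195 in collagen cells, so the collagen share is not a plain level of free RNA. Csn2 in basal cells was 10.1% (H) and 8.11% (G) of its LP-gate level, in ML-gate cells 15.8% and 8.80%, and in collagen cells 27.5% and 8.36%. The summed milk share of pregnant basal and ML-gate cells was thus below that of the collagen cells in H and slightly above it in G, where Csn2 alone was slightly lower in basal than in collagen cells. How much of their milk RNA was free RNA was not tested. LP-gate cells, and unassigned luminal cells at 6.23% and 4.80%, stood above the collagen cells in both libraries.

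**Figure D3:**
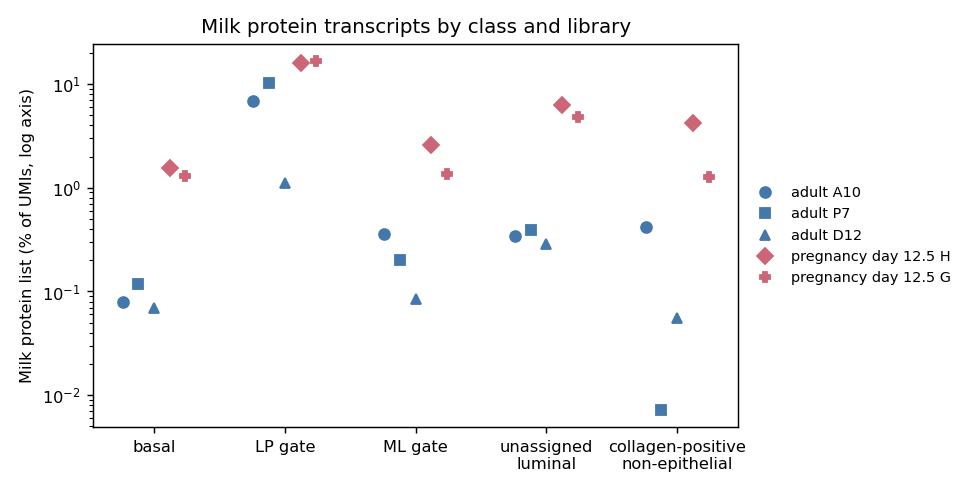
Share of counts on the milk protein list (percent, log axis) by class and library, with collagen cells for comparison, in which free RNA and doublets cannot be told apart. Pregnant basal and ML-gate cells (1.29 to 2.57%) lie in the range of the collagen cells (1.26 to 4.25%), and pregnant LP-gate cells (15.9 and 16.5%) lie above it.

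ML-gate cells were few in pregnancy, 186 in H and 250 in G against 1114 to 3714 in the adults, and yet 143 of 11066 genes rose (1.29%) and 69 fell (0.624%). By fitted log2 difference the largest rise under the naming rule was that of Pnmt, the enzyme that makes epinephrine from norepinephrine (14.94, against 14.23 for Glycam1). Pnmt had no count in any adult library and 485 and 335 scaled CPM in H and G, at least 6097-fold higher on that floor (adjusted p = 0.0034). The count ratio of Glycam1 was 29460 (5279 to 1164400), so counts do not settle which of these genes rose more. In pregnant LP-gate cells Pnmt was at 0.977 and 1.19 CPM. H19, the imprinted noncoding RNA, was at 0.118, 0 and 0.571 scaled CPM in A10, P7 and D12 and 336 and 398 in H and G (log2 difference 10.35 ± 0.86, adjusted p = 0.0034), and Tox, a nuclear HMG-box protein, at 0.157, 0 and 0.381 scaled CPM in A10, P7 and D12 and 58.6 and 71.1 in H and G (8.14 ± 0.66, adjusted p = 0.0034). The copper pump Atp7b was at 1.18, 0.229 and 0.254 scaled CPM in A10, P7 and D12 and 147 and 191 in H and G (8.0 ± 0.74, adjusted p = 0.00461), and Lgi2 had 2 adult and 104 pregnant counts, a ratio of 1090 (294 to 9116). Adult levels of Pnmt, H19, Tox, Atp7b and Lgi2 were at or near 0, and each kept its call in every alternative.

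Wfdc12, a secreted protease inhibitor of the whey acidic protein family, was at 33.4, 17.9 and 4.57 scaled CPM in A10, P7 and D12 and 8262 and 7107 in H and G (8.69 ± 1.06, adjusted p = 0.0115). It was an ML-gate transcript in pregnancy, at 8558 and 7252 CPM against 23.4 and 16.8 in LP-gate cells. Socs2, a feedback inhibitor of cytokine receptors induced by STAT5, rose from 68.4, 62.5 and 47 to 583 and 555 scaled CPM (3.26 ± 0.42, adjusted p = 0.0128), and Erbb4, the neuregulin receptor, from 0.274, 0 and 0.571 to 34.5 and 37.6 scaled CPM (6.67 ± 0.68, adjusted p = 0.00657), though on 95 counts in all. They were 2 of 17 prolactin and STAT5 genes, of which none fell (median 0.59 against -0.12 for all genes).

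Tnfsf11, Calca and Wnt4, known signals from hormone-sensing cells, stood higher in H and G without passing the test. They were named after their values were seen. Areg, an EGF receptor ligand, is a gate gene that cannot be read in this class, and it fell in the sum of all luminal cells. Tnfsf11, RANK ligand, was at 0.783, 15.3 and 0.824 scaled CPM in A10, P7 and D12 and 535 and 587 in H and G (6.75 ± 1.36, adjusted p = 0.0553). Calca, which encodes calcitonin, was at 0.0392, 14.2 and 25.6 scaled CPM in A10, P7 and D12 and 4352 and 3665 in H and G (adjusted p = 0.0715). Adults and pregnant libraries did not overlap in either gene, and levels outside the ML gate were far lower. Pregnant LP-gate cells held 2.0 and 2.31 CPM of Tnfsf11 and 11 and 10.9 of Calca, and pregnant collagen cells no Calca. Wnt4 was at 351, 29.5 and 121 scaled CPM in A10, P7 and D12 and 525 and 584 in H and G (adjusted p = 0.342), so A10 came close to the pregnant values.

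Other ML-gate rises were of LP-gate or milk genes. Glycam1 (769 and 548 scaled CPM in H and G against 1 adult count), Fabp3 (8.35 ± 0.91), Thrsp (6.45 ± 0.56), Rspo1 (5.16 ± 0.66) and Cd36 passed the test. In H and G, Glycam1 in ML-gate cells was 9.82% and 6.32% of its LP-gate level and 33.8% and 4.37% in collagen cells. Fabp3 stood at 18.3% and 11.1% against 39.1% and 10.6%. Both genes were lower in ML-gate than in collagen cells in H and higher in G, and the part of free RNA in their rises was not tested. Thrsp stood at 87.8 and 42.5 CPM in ML-gate cells against 614 and 563 in LP-gate cells and at 193 and 0 in collagen cells, and Rspo1 at 53.1 and 22.5 against 261 and 247 and at 27.5 and 35.2, the last from 2 counts in each library. Csn1s2b, a casein, also rose (0.274, 0 and 1.21 to 19.9 and 18 scaled CPM, 5.03 ± 0.89, adjusted p = 0.0357), on 7, 0 and 19 adult and 19 and 22 pregnant counts. On these few counts its ML-gate level in H and G was near that of LP-gate cells, at 20.6 and 18.3 CPM against 17.2 and 14.5. Milk list calls were 2 of 14 (median 2.70), milk fat globule calls 4 risen and 1 fallen of 14 (1.32) and fatty acid synthesis calls 2 of 18 (1.46), counts that include Glycam1, Fabp3 and Cd36.

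The ML-gate falls were steep. Ly6d, a small surface antigen, was at 3238, 2922 and 3732 scaled CPM in A10, P7 and D12 and 2.09 and 1.63 in H and G (log2 difference -10.79 ± 0.94, adjusted p = 0.0034), from 154280 adult counts to 4. The fibrinogen chains fell as well, Fgb from 16346 counts to 1, a ratio of 780 (140 to 30815, adjusted p = 0.0151), and Fgg from 400.5, 1769.6 and 395 to 4.19 and 8.99 scaled CPM (-6.99 ± 1.11, adjusted p = 0.0243). Ly6a fell from 586, 496 and 1143 to 57.6 and 30.2 scaled CPM (-4.08 ± 0.69, adjusted p = 0.0292), and the water channel Aqp5 from 434, 1019 and 654 to 7.33 and 4.08 scaled CPM (-6.96 ± 0.77, adjusted p = 0.00862). In each of these genes all adults stood several fold above both pregnant libraries. Nrxn3, a neurexin, had 4750 adult counts and none in pregnancy, at least 75.6-fold lower. Lrrc26, Dnaic1, Trpc6, Cntfr and Padi2 were also at 0 in H and G, at least 19.7-fold, 22.1-fold, 17.3-fold, 13.4-fold and 19.5-fold lower. Fcgbp, at least 25.8-fold lower, was an LP-gate gene in the adults (418, 622 and 538 CPM against 31.3, 27.2 and 37.2 in ML-gate cells). After thinning, where fewer counts remain, 11 of the 32 calls named in ML-gate cells were lost, those of Lrrc26, Dnaic1, Trpc6, Cntfr, Padi2, Fcgbp, Ly6a, Rspo1, Stard4, Wnt7b and Cxcl2. The log2 difference was then -3.74 for Ly6a, 4.86 for Rspo1, 4.89 for Stard4, -3.53 for Wnt7b and -1.97 for Cxcl2. Cntfr was also lost without TMM scaling and Cxcl2 under the study's cell limits.

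By list, 1 of 17 hormone-sensing genes rose in ML-gate cells, Pnmt, and 3 fell, Fgb, Fgg and Ly6a (median -1.43). The groups lay apart with pregnancy lower for 10 of the 17, where 23.8% of all genes did, and with pregnancy higher for 5, where 21.4% did. The transcription factors of these cells were among the uncalled, Foxa1 with adjusted p = 0.874 and 150.1, 58.6 and 117 scaled CPM in A10, P7 and D12 and 128 and 118 in H and G. Of 12 Notch genes 1 fell, the target Hes1, at 1051, 619 and 385 scaled CPM in A10, P7 and D12 and 48.1 and 56.4 in H and G (-3.71 ± 0.65, adjusted p = 0.0331), and the median was 0.38. Of 18 WNT genes Rspo1 rose and Wnt7b fell (28, 32.1 and 25.7 to 3.14 and 1.63 scaled CPM, -3.61 ± 0.55, adjusted p = 0.021). Of 29 cell cycle genes 1 rose, Stmn1, a tubulin regulator (2.69 ± 0.49, adjusted p = 0.0387). Of 20 cholesterol synthesis genes Stard4, a sterol carrier, rose, and of 15 chemokines Cxcl2 fell (-2.89 ± 0.48, adjusted p = 0.0271). Lyz2, a lysozyme of macrophages, rose to 17.8 and 28.6 scaled CPM (5.96 ± 0.94, adjusted p = 0.0235), on 52 pregnant counts, while the defining leukocyte genes Ptprc and Cd52 were at 0 in pregnant ML-gate cells. Blood genes took 0.003%, 0.0024% and 0.0066% of ML-gate counts in A10, P7 and D12 and 0.0258% and 0.0255% in H and G, and the 2 tested, Hba-a1 and Hba-a2, lay apart and were called by DESeq2 but not by edgeR (adjusted p = 0.0607 and 0.0776). ML-gate cells also differed in quality, with a median mitochondrial share of 3.69%, 0.417% and 3.15% in the adults and 6.17% and 5.58% in pregnancy, and all 7 basal check markers were higher in pregnancy (median 1.46). The part of these in the results was not tested.

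Leaving out P7 raised the count in ML-gate cells to 571 risen (4.80%) and 592 fallen (4.98%) of 11885 genes, with all 212 earlier calls among them, and leaving out H or G cut it to 23 or 16. Of 32 called genes of ML-gate cells named here, 23 lost the call without H and 24 without G, 3 without D12, 2 without A10 and none without P7, with adjusted p up to 0.550, and 8 kept it throughout. Without P7, and chosen after seeing the data, 4 of 14 milk protein genes rose, 4 of 17 hormone-sensing genes rose and 6 fell, and 3 of 17 prolactin and STAT5 genes rose and 3 fell.

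In basal cells 4 of 13080 genes rose (0.0306%) and none fell (0%) by edgeR, while DESeq2 called 556, 1.75% of all genes higher and 2.50% lower, and the unadjusted edgeR p was under 0.05 for 1578 (12.1%). The 4 were Glycam1, Fabp3, Thrsp and the connexin Gjb2. Glycam1 went from 1 to 22359 counts, a ratio of 16725 (3002 to 660630, adjusted p = 0.00515), and Fabp3 from 3.65, 6.18 and 4.28 to 271 and 215 scaled CPM (5.73 ± 0.40, adjusted p = 0.0198). Thrsp had 0.629, 0.343 and 0.178 scaled CPM in A10, P7 and D12 and 48.3 and 39.2 in H and G (6.69 ± 0.51, adjusted p = 0.0225) and Gjb2 0.314, 0.343 and 0.267 scaled CPM in A10, P7 and D12 and 12.8 and 10.2 in H and G (5.22 ± 0.43, adjusted p = 0.0286). All stood highest in LP-gate cells. Their basal level was 6.78% and 5.85% of the LP-gate level for Glycam1 in H and G, 12.6% and 9.38% for Fabp3, 7.58% and 6.56% for Thrsp and 7.21% and 5.76% for Gjb2. For Csn2 the proportions were 10.1% and 8.11%. The part of free RNA in the 4 rises was not tested. In collagen cells Thrsp had 14 counts in H and 0 in G and Gjb2 6 and 0, on 72600 and 56826 UMIs in all. The call of each was lost without A10, and also without D12 (adjusted p up to 0.438). Those of Thrsp and Gjb2 were lost without P7 too, and that of Gjb2 without H and without G.

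The lists of basal functions held no edgeR call in basal cells. Of 17 contractile genes, which include Acta2 and Myh11, DESeq2 called 2 higher and 1 lower, with an unadjusted edgeR p under 0.05 for 4 (median 0.47 against -0.08 for all genes). Acta2 was at 8148, 16208 and 8454 scaled CPM in A10, P7 and D12 and 16504 and 16363 in H and G, so P7 lay near the pregnant values. Of 24 basement membrane genes DESeq2 called 1, lower, with an unadjusted p under 0.05 for 3 (median 0.27). Of 21 basal identity genes DESeq2 called 1 higher and 7 lower, with an unadjusted p under 0.05 for 12 (median -1.06). The 17 hormone-sensing genes tested, which are luminal transcripts, had a median of -2.57, with 12 at an unadjusted p under 0.05 and 2 higher and 8 lower by DESeq2. Of 29 cell cycle genes none passed by edgeR and 10 by DESeq2, all higher, with an unadjusted p under 0.05 for 15 and a median of 1.82, and the groups lay apart, with pregnancy higher, for 22, where 19.2% of all genes did. The share of all genes apart with pregnancy lower was 16.8%.

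The cell cycle was also read per cell, after thinning each cell to 1500 UMIs and leaving out shallower cells. A cell counted as cycling with 3 or more UMIs over 14 genes of mitosis and DNA replication, among them Mki67, Top2a and Cdk1. In P7 301 basal cells were left out as too shallow and 875 were read. Cycling cells made up 3.68%, 0.457% and 1.0% of basal cells in A10, P7 and D12 and 16.2% and 16.4% in H and G (1.71% ± 1.73, n = 3, against 16.3% ± 0.158, n = 2). In the LP gate they were 3.78%, 0% and 0.631% against 14.2% and 13.7% (1.47% ± 2.02 against 13.9% ± 0.337). The 0 of P7 came from 719 cells, which allows a share of up to 0.417%. Both differences had the smallest p that the design allows (exact permutation, p = 0.1), and no adult library came near either pregnant one.

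In the ML gate the shares were 4.89%, 0.495% and 0.740% against 8.11% and 6.02% (exact permutation p = 0.2), the groups just apart. Without thinning the means were 3.03% and 42.2% in the LP gate, 3.65% and 23.1% in basal cells and 4.85% and 14.5% in the ML gate, in the same direction. The cut lay within the distribution: 503 LP-gate cells of H had 2 of these UMIs and 321 had 3. Cell cycle transcripts were also higher in pregnant collagen cells, where the 29-gene list took 0.3278% and 0.3625% of counts against 0.1125 to 0.2022% in the adults, and in LP-gate cells it took 0.4193% and 0.4020% against 0.1728 to 0.2157%. The part of free RNA in the cycling calls was not tested.

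**Figure D4:**
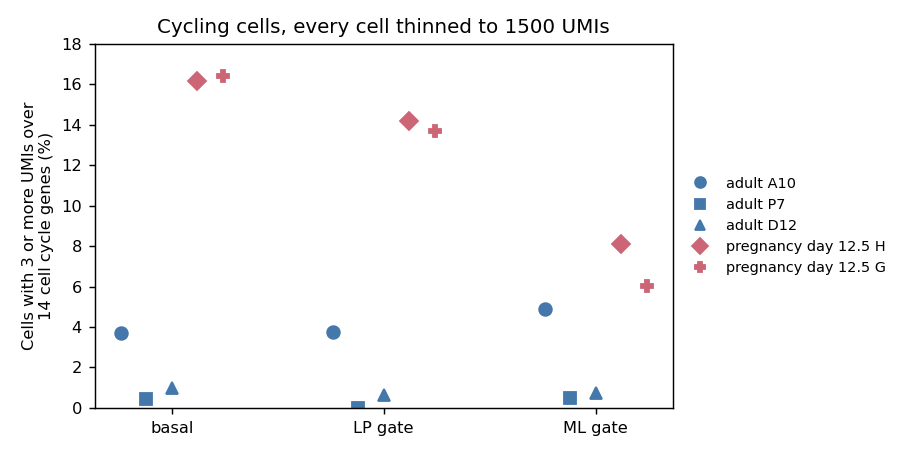
Share of cells called cycling (percent, vertical axis) by class after thinning to 1500 UMIs, each point a library. Pregnant basal cells lie at 16.2 and 16.4% and pregnant LP-gate cells at 13.7 and 14.2%, against at most 3.78% in the adults of these classes.

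By gene, the cell cycle list in LP-gate cells held no edgeR call among 29 (DESeq2 called 12, all higher, and the unadjusted p was under 0.05 for 16, against 23.98% of all genes), although the groups lay apart with pregnancy higher for 26, where 27.3% of all genes did, and the median was 1.63. Stmn1 was at 73.5, 29.3 and 94.2 scaled CPM in A10, P7 and D12 and 439 and 383 in H and G (adjusted p = 0.0519) and Mki67, the proliferation marker, at 16.6, 0 and 3.36 scaled CPM in A10, P7 and D12 and 28.6 and 25.8 in H and G (adjusted p = 0.338). A10 stood above the other adults in Mki67 and in the share of cycling cells.

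The gate genes themselves were tested only in the sum of all luminal cells, which the keratins alone define. There 302 of 14563 genes rose (2.07%) and 632 fell (4.34%), and in such a sum fewer cells of a type and less RNA per cell cannot be told apart. The 5 genes of the ML gate fell. Areg, amphiregulin, the EGF receptor ligand of ducts, was at 1627, 1507 and 945 scaled CPM in A10, P7 and D12 and 16.8 and 24 in H and G (-6.06 ± 0.63, adjusted p = 0.0119). The prolactin receptor Prlr was at 1325, 966 and 1718 scaled CPM in A10, P7 and D12 and 62.7 and 70.1 in H and G (-4.33 ± 0.56, adjusted p = 0.0149). In both genes every adult stood far above both pregnant libraries. The progesterone receptor Pgr (-4.17 ± 0.67, adjusted p = 0.0249), the estrogen receptor Esr1 (-2.53 ± 0.41, adjusted p = 0.0256) and Cited1, a transcriptional coregulator (-4.89 ± 0.53, adjusted p = 0.0119), fell too. No LP gate gene was called. Elf5, the alveolar transcription factor, was at 64, 119 and 44.9 scaled CPM in A10, P7 and D12 and 285 and 271 in H and G (1.88 ± 0.47, adjusted p = 0.0703). In the same sum 15 of 23 hormone-sensing genes fell and 1 rose (median -4.33), 5 of 20 luminal progenitor genes fell (median -1.69), and of 19 prolactin and STAT5 genes Tnfrsf11a, the receptor RANK, rose (2.38 ± 0.50, adjusted p = 0.0465) and Prlr fell. The calls of these 5 gate genes and of Tnfrsf11a were lost without H or G, with adjusted p up to 0.323. Without D12 those of Pgr, Esr1 and Tnfrsf11a were lost too, that of Esr1 also after thinning, and that of Tnfrsf11a also under the stricter keratin gate and without cells holding counts of other cell types.

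Luminal cells in neither gate gave 11 risen (0.109%) and 29 fallen (0.287%) of 10121 genes. Without cells holding counts of other cell types 6 rose and none fell, and under the stricter keratin gate 9 rose and none fell. Such cells were 7.39 to 12% of these luminal cells in the adults and 3.11% and 2.07% in H and G, and the 7 stromal genes tested were lower in pregnancy (median -2.92), none with an edgeR call. Their part in the falls was not tested beyond these alternatives. Glycam1 had no adult count there and 10787 in pregnancy, and Wap was at 1.71, 0 and 0 scaled CPM in A10, P7 and D12 and 303 and 285 in H and G (7.91 ± 0.66, adjusted p = 0.0123). Pregnant levels of Glycam1 were 2346 and 2165 CPM in these cells against 8112 and 8850.4 in LP-gate cells and 2741 and 387 in collagen cells, so these cells were below the collagen cells in H and above them in G. The same held for Wap, at 272 and 257 CPM in these cells and 289 and 88 in collagen cells of H and G. The part of free RNA in the rises of Glycam1 and Wap was not tested. Both calls were lost without D12 (adjusted p up to 0.0988), and that of Glycam1 also without G.

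Whether 2 classes of the same libraries changed unequally was tested by the interaction of class and stage with the library as a block. The effect of stage differed between LP-gate and basal cells for 1024 of 14594 genes (7.02%), between ML-gate and basal cells for 1334 (9.14%) and between ML-gate and LP-gate cells for 1738 (11.9%). Hey1 fell in LP-gate cells, its log2 difference in basal cells was -0.82 (adjusted p = 0.621), and the difference between the classes was -7.18 ± 0.53 (adjusted p = 0.000102). Apod gave a difference of -8.98 ± 0.98 and Fam189a2, a membrane protein gene, one of 6.21 ± 0.52. Between ML-gate and basal cells the difference was 7.86 ± 0.57 for Tox and 6.46 ± 0.66 for Peg3, an imprinted zinc finger gene. Slpi, a secreted protease inhibitor, had a log2 difference of 4.15 in ML-gate cells and -3.75 in basal cells, without a call in either, and the difference of 8.26 ± 1.05 was called (adjusted p = 0.0006).

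Papln, Car8, Mmp16 and Scnn1b were the genes named by the rule for a higher stage effect in ML-gate than in LP-gate cells. Car8, a carbonic anhydrase relative, fell in LP-gate cells (-5.16, adjusted p = 0.00936) and stood 2.53 higher in ML-gate cells without passing (adjusted p = 0.0773), a difference of 7.91 ± 0.44 between the classes. Papln, an extracellular matrix protein gene, fell by 6.47 on the log2 scale in LP-gate cells and was 2.26 higher in ML-gate cells, a difference of 8.66 ± 0.66. These calls held in every alternative tried for Papln, Car8, Mmp16, Scnn1b, Tox, Slpi, Peg3, Hey1, Apod and Fam189a2.

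**Figure D5:**
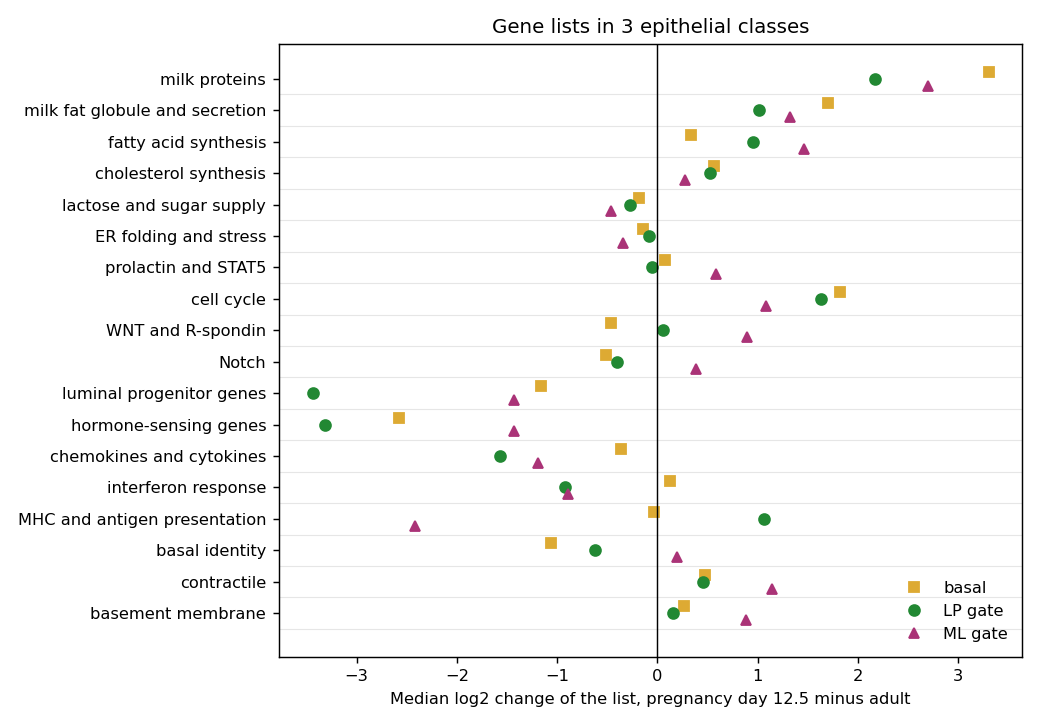
Median log2 difference (pregnancy day 12.5 minus adult, horizontal axis) of each gene list in LP-gate, ML-gate and basal cells, each point a list in a class, with a line at 0. The luminal progenitor list lies at -3.44 in LP-gate cells, and the cell cycle list lies at 1.63, 1.08 and 1.82 in the 3 classes.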

How the data were processed

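The samples used were 5 of 18 droplet libraries (10x Chromium, 3′ end). The authors deposited raw counts of UMIs per gene and barcode for each library, made with Cell Ranger (3.0.2 per the file headers of these libraries, 3.1.0 in the submitters' processing notes, which name the build mm10), and exported barcodes with 500 or more reads. Each file held 31053 features, of which 71 shared a symbol and were kept apart by identifier. Cells were kept and gated as the report states, counts were summed per library and class (20 or more cells), and genes passing filterByExpr were tested with edgeR 4.0.16 (TMM scaling, quasi-likelihood fit, R 4.3.3, limma 3.58.1) with calls at an adjusted p (Benjamini-Hochberg) under 0.05. Class by stage interactions used the library as a block. The SE of a log2 difference was taken as its absolute value divided by the square root of the test's F statistic. Shares of cells were compared with exact two-sided permutation tests (scipy 1.17.1, numpy 2.4.6, pandas 2.3.3, Python 3.11.15), which cannot go below p = 0.1 with 2 against 3 libraries. Intervals of count ratios are exact 95% intervals and, like the floors of 3 counts, cover counting error only.

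The groups follow the labels. The genes named were, per class, the 8 largest rises and 8 largest falls among called genes with a change of 2-fold or more, no overlap between the groups and 100 or more UMIs, outside gate, blood, mitochondrial and ribosomal protein genes, plus up to 4 called members of each list, or else the 1 or 2 with the most UMIs. Some results that this rule would name are not reported here. Other genes are named for a count of 5 or fewer or after their values were seen. The comparison, the gene lists and the tests were chosen with earlier results of these data known. The scripts were tested on simulated counts with known changes. Alternatives were other scalings (RLE, none), DESeq2 1.42.0, no filter on low counts, all 9 FVB/NJ libraries of the replicated stages, the study's cell limits, 1000 genes per cell, a stricter keratin gate, cells with counts of other cell types left out, thinning to 1500 UMIs, milk genes left out, and each library left out. The number of mice pooled is given in the study as 3 to 4 per stage and per strain in some places, and as 4 for the adult and 2 for other stages in another. The study states that an FVB/NJ adult and the post-involution library were processed together. Its list of samples processed together names no pregnancy library, so stage and processing run cannot be told apart here. The study's bulk data were not used, and the 4 FVB/NJ libraries of later pregnancy and lactation only in the fit with all 9.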

Additional observations from a re-analysis of the deposited data

Results flagged for a closer look

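These results were singled out because 2 classes of the same libraries changed unequally between the stages, by the interaction test in edgeR with the library as a block. In number they were 1024 genes for LP-gate against basal cells, 1334 for ML-gate against basal cells and 1738 for ML-gate against LP-gate cells. Under the other settings these counts ran from 37 to 1603, from 101 to 2271 and from 108 to 2662.

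Differences in the log2 change between LP-gate and basal cells were 6.21 for Fam189a2, 5.19 for the connexin gene Gjb6, 4.76 for the dopamine receptor gene Drd4 and 4.69 for Tnfrsf19, a receptor of the TNF family. They were -8.98 for Apod, -7.18 for the Notch target Hey1, and -5.68 for both the retinol-binding protein gene Rbp7 and the small proteoglycan gene Ogn. Gjb6 in pregnant basal cells stood at 9.46% (H) and 7.37% (G) of its LP-gate level, where Csn2 stood at 10.1% and 8.11%. After thinning the difference of Gjb6 was 1.30 and its call was lost. The calls of Lif, Naprt, Stx11, Mal and Sdr42e1, named in the next paragraph, were lost too, with differences of -7.30, -6.74, -6.40, -6.83 and -7.06.

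Between ML-gate and basal cells they were 8.26 for the protease inhibitor gene Slpi, 7.86 for Tox, 6.78 for Ggta1 and 6.46 for the imprinted gene Peg3, and -9.73 for Lif, -8.95 for Stx11, -8.80 for Naprt and -6.51 for Stc2. Between ML-gate and LP-gate cells they were 8.66 for Papln, 7.91 for Car8, 7.13 for Mmp16 and 6.87 for the sodium channel subunit gene Scnn1b, and -9.98 for Hopx, -9.51 for Mal, -9.32 for Mettl24 and -9.24 for Sdr42e1. Lif, Stx11, Naprt, Hopx, Mal, Mettl24 and Sdr42e1 had no count in pregnant ML-gate cells, so their fitted differences depend on the prior count and are no bounds.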

How the results depend on the processing

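The number of called genes moved with the settings, and scaling moved the balance of directions over all calls, as given below. The single named genes were mostly chosen for large differences in these same data, so their directions could move little. Of the differences of single named genes under the alternatives, 1684 kept their direction and side of the threshold, 309 kept their direction and lost the call, 41 gained one, and 4 turned sign. Those 4 were the uncalled Ehf in LP-gate cells (-0.24 without TMM scaling, and -0.11 to 0.10 with 1 library left out), the uncalled Foxa1 in ML-gate cells (-0.12 to 0.52 with 1 library left out) and Nid1 in LP-gate cells (0.63 without cells holding counts of other cell types). The cause of these shifts was not tested. Apart from leaving out a library, thinning to 1500 UMIs, which leaves fewer counts, ended the most calls.

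Counts of called genes differed by more than 1.5 times from those reported as follows. DESeq2 called 556 genes in basal cells, 1687 in LP-gate, 748 in ML-gate, 251 in unassigned luminal and 2444 in all luminal cells. With no filter on low counts edgeR called 338, 992, 916 and 526 in the first 4 of these, and 1603, 2080 and 2662 in the interactions of LP-gate with basal, ML-gate with basal and ML-gate with LP-gate cells. With all 9 FVB/NJ libraries sharing a spread they were 79, 1459, 576, 134 and, in all luminal cells, 2155. Thinning gave 25 in basal, 97 in ML-gate, 246 in unassigned and 497 in all luminal cells, and 599, 580 and 529 in the interactions. The stricter keratin gate gave 9 in basal and 9 in unassigned luminal cells, where leaving out cells with counts of other types gave 6. With 1 library left out the counts ran from 0 to 3 in basal, 2 to 2386 in LP-gate, 16 to 1163 in ML-gate, 0 to 157 in unassigned luminal and 6 to 3794 in all luminal cells, and from 37 to 1547, 101 to 2271 and 108 to 2310 in the interactions.

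Scaling moved the balance of directions. Without TMM the median log2 difference of all genes went from -0.02 to -0.28 in LP-gate cells, from -0.07 to -0.39 in all luminal, from -0.03 to -0.22 in unassigned luminal and from -0.08 to -0.19 in basal cells, and the share of calls with pregnancy higher fell from 32.3% to 20% in all luminal cells. In the interactions that share went from 37.0% to 24.9% without TMM (LP-gate minus basal), from 46.1% to 56.5% with RLE and 73.3% without TMM (ML-gate minus basal), and from 44.1% to 63.1% and 80.1% (ML-gate minus LP-gate).

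The difference in share between pregnancy and adult was 1.02 percentage points for the LP gate and 17.8 for unassigned luminal cells after thinning, and -37.1 (1000 genes per cell) and -37.6 (stricter gate) for the ML gate. The difference in cycling cells was 20.3, 8.05 and 18.2 points in LP-gate, ML-gate and basal cells with a cut of 2 UMIs, 39.2, 9.61 and 19.5 without thinning, 4.02, 2.57 and 9.59 with a cut of 5, and 12.8 in basal cells under the stricter gate. All kept their direction. The smallest sum tested was that of unassigned luminal cells in P7, 117 cells with 233197 UMIs. No paired analysis was possible because the libraries of the 2 stages share no replicate number.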

Other observations

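Some immune-related gene groups were not described above. Over all genes, the unadjusted p was under 0.05 for 10.2% higher and 13.8% lower in LP-gate cells and for 7.77% higher and 9.79% lower in ML-gate cells, and DESeq2 called 4.10% higher and 9.005% lower in LP-gate and 3.497% higher and 3.26% lower in ML-gate cells. In LP-gate cells 14 genes of the major histocompatibility complex and antigen presentation had a median log2 difference of 1.07, with no edgeR call, an unadjusted p under 0.05 for 5 higher and 1 lower, and 3 higher and 1 lower by DESeq2. In ML-gate cells the 10 tested genes of that list had a median of -2.42, again with no edgeR call, 1 higher and 7 lower at an unadjusted p under 0.05, and 1 higher and 5 lower by DESeq2. By the interaction of class and stage in edgeR, 10 of the 16 genes of the list that were tested changed unequally between the gates, against 11.9% of all genes. In ML-gate relative to LP-gate cells 8 were lower, among them the class I gene H2-K1 (log2 difference -2.23 ± 0.20) and the immunoproteasome subunit gene Psmb9 (-4.15 ± 0.47), and 2 were higher, B2m (1.12 ± 0.21) and the class II gene H2-Eb1 (3.53 ± 0.97). The list's median was -1.77 against -0.17 for all genes, and -1.62 and -1.43 with RLE scaling and without TMM. H2-K1 and Psmb9 kept the call in every alternative, B2m lost it without H or G, and H2-Eb1 under 6 alternatives, thinning among them. These 4 genes were chosen after their values were seen.

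Of interferon response genes none of 18 was called by edgeR in LP-gate cells (median -0.92, 2 higher and 6 lower at an unadjusted p under 0.05, 3 lower by DESeq2) and none of 15 in ML-gate cells (median -0.89, 4 lower at an unadjusted p under 0.05, 2 lower by DESeq2). Genes of the dissociation response had a median of -1.59 in ML-gate cells, where none of 18 was called by edgeR, 11 were lower at an unadjusted p under 0.05 and DESeq2 called 9, all lower. Their summed share of counts there was 0.963%, 2.71% and 1.06% in A10, P7 and D12 and 0.517% and 0.555% in H and G. The library P7, with the highest share, is also the one with the lowest mitochondrial share and the shallowest cells.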
